A study of Homo sapiens with 22 samples.

Results

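The immediate early genes FOS, FOSB, JUN, JUNB, EGR1, DUSP1, ZFP36, KLF2, IER2 and ATF3 were followed by symbol through the reprogramming of human fibroblasts, and are 10 of the 33694 genes measured. They were chosen by their CPM in each pool by day (a lower level after D0 and any later return), so their values by day are given as a description, without a test. BJ cells, an established line of human foreskin fibroblasts, were grown in microfluidic chips and reprogrammed with unmodified messenger RNAs, and single-cell libraries were made from pools of cells of 4 chips each. D0 cells were taken before any transfection and carry the label control, and the cells of D3, D5, D7, D9, D11, D13 and D15 carry the label of mRNA transfections. There were 2 pools, A and B, for each of the 8 days. All groups shared the cell line, the chips, detachment with TrypLE, and freezing and thawing ahead of capture. The fibroblasts were cultured in DMEM with fetal bovine serum, and from the day after seeding the medium was Pluriton, with a transfection each night until 8 had been given, the last on day 8. Cells of D3, D5 and D7 were therefore taken partway through the transfections, and only cells of D9 and later were switched to StemMACS iPSBrew XF, from day 9. Reprogramming ran in hypoxia at 5% oxygen, and the sources used here do not say whether D0 cells had been in it. D0 thus differs from D3 in medium, serum, time in the chip and transfection together, which cannot be told apart. The transfected RNAs encode POU5F1, SOX2, KLF4, MYC, LIN28 and NANOG, and because KLF4 and MYC are early response genes themselves they were left out of every list. All 16 pools descend from 1 cell line, so the spread between pools A and B is not one between lines or donors. It holds differences between chips together with those of freezing, thawing, capture and library, which cannot be told apart.

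Immediate early genes are transcribed within minutes of a stimulus such as serum, a growth factor, stress or dissociation, by transcription factors that are already present in the cell (SRF with its partners and CREB among them) and that are switched on by MAP kinase and related signalling. Their transcripts decay fast, partly through AU-rich elements bound by proteins of the ZFP36 family, so that the level at any time follows recent signalling. The members fall into 3 roles. FOS, FOSB, JUN and JUNB encode subunits of the dimeric transcription factor AP-1. EGR1 and KLF2 encode zinc finger transcription factors, ATF3 a stress-responsive factor of the basic leucine zipper family, and IER2 a small nuclear protein. DUSP1, a phosphatase that inactivates MAP kinases, and ZFP36, which promotes decay of AU-rich transcripts, belong to the feedback arm.

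The files held 44197 cell barcodes in 22 libraries, and 41975 of them passed the limits used here, 1000 genes or more and a mitochondrial share no higher than 10%. Pools held 571 to 6142 kept cells and 33181614 to 180056814 UMIs (unique molecular identifiers, each standing for 1 captured transcript), and levels are given as CPM, a gene's UMIs per 1000000 UMIs of the pool. Library pairs shared 0 to 41 barcodes, with a median of 3. Fibroblast markers were present as labelled: 14 somatic markers (S100A4, which alone made up 6390 CPM on D0, with collagen, matrix and other fibroblast genes) summed to 10960 and 10777 CPM on D0 and 1447 and 1835 CPM on D15, while 20 markers of pluripotent cells went from 50.7 and 51.2 CPM to 5134 and 4685 CPM. Of the markers of other cell types, the 6 of keratinocytes summed to 293 and 304 CPM on D0, nearly all of it KRT10, with KRT5, KRT1 and TP63 at 0. The 6 of blood cells summed to 89.4 and 88.3 CPM on D0, nearly all CD68, with CD3E at 0, and to 3.62 and 2.79 CPM on D15. The sum stayed at 29.9 CPM or less for 5 melanocyte markers and at 31.2 CPM or less for 5 endothelial markers in every pool, and 8 mesendoderm markers reached at most 202 CPM, in pool A of D11. The part of these cells in the results below was not tested. In sums over a pool, fewer cells of a type and less RNA per cell cannot be told apart.

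The promoters are shown because early genes are known for elements there that respond to signals, and to let members with and without a match be seen side by side. All 10 members matched RefSeq (GRCh38.p14), with 1 window of 250 bases before each transcription start and 2 windows for ATF3. Both strands were searched for the core of the cAMP response element (TGACG) and the whole element (TGACGTCA, which contains the core). They were also searched for the AP-1 element (TGANTCA), the CArG box bound by SRF, and TATAAA. All TATAAA matches of the members lay on the gene's strand, while the shares of TATAAA count matches on either strand. The CRE core was found in FOS, FOSB, JUN, JUNB, EGR1, DUSP1 and IER2, which is 7 of 10 genes, and in 21.2% of all 35116 windows. It was also in 31 of 58 other early response genes that matched RefSeq, and TATAAA was in 13 and TGACGTCA in 7 of them. TGACGTCA stood in the DUSP1 window alone among the members, against 1.65% of all windows, and the CArG box in the EGR1 window alone, with 2 copies, against 1.16%. TATAAA was present for FOS, FOSB, JUNB, DUSP1 and the second window of ATF3, against 10.7% of all windows. The AP-1 element, present in 6.57% of all windows, was in no member's window, and the ZFP36 and KLF2 windows held 0 matches to the elements searched for. Of the ATF3 windows, at its separate start sites, 1 held the letters TATAAA alone, 230 bases before the start, and the other held 0 matches. The windows of 5 members follow, on the gene's strand and with each match in capitals: FOS at chr14:75278578-75278827 (+), JUNB at chr19:12791236-12791485 (+), EGR1 at chr5:138465229-138465478 (+), DUSP1 at chr5:172771196-172771445 (-) and IER2 at chr19:13150161-13150410 (+).
FOS: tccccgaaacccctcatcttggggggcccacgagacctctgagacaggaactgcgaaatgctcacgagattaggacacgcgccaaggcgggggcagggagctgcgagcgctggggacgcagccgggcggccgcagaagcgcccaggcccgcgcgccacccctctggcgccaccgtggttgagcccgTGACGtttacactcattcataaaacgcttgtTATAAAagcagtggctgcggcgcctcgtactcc
JUNB: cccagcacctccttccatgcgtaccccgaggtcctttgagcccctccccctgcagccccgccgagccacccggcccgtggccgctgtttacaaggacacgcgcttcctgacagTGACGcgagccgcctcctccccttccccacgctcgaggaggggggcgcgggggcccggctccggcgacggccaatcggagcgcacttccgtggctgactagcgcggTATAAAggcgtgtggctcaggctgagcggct
EGR1: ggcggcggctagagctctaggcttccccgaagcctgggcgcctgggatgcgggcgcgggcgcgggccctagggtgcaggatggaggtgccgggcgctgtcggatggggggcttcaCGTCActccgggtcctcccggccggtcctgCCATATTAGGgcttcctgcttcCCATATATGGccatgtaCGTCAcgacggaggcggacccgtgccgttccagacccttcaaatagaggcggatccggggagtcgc
DUSP1: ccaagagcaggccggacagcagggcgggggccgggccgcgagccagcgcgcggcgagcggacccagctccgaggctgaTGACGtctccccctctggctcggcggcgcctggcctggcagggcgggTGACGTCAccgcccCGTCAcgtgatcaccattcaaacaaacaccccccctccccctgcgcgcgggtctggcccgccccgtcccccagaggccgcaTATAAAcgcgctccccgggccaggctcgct
IER2: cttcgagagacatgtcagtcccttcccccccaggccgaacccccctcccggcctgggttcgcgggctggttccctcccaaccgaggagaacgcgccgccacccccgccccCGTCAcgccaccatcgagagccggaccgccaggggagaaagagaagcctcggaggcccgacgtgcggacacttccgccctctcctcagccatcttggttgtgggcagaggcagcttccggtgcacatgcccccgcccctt
Counted from the start site to the 5′ end of the match on the gene's strand, the CRE core began 64 bases upstream for FOS, 137 for JUNB, 135 and 66 for EGR1, 172, 125, 122 and 111 for DUSP1, and 140 for IER2. The EGR1 window also held its CArG boxes at 105 and 83 bases, and TATAAA lay 30 to 33 bases upstream in FOS, JUNB and DUSP1. These matches are letters in a window and were not measured as binding. Bases farther upstream were not searched, so a member with no match here may hold the element there.

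The AP-1 genes were highest on D0 and far lower in every later pool. FOS (ENSG00000170345, chr14:75278826-75282230, plus strand) stood at 438 and 468 CPM in pools A and B of D0, at 75.3 and 71.2 CPM on D3, at 66.3 and 41.4 CPM on D5 and at 75.9 and 105.9 CPM on D7. It then stood at 49.6 and 51.7 CPM on D9, 54.1 and 56.8 CPM on D11, 29.5 and 24.0 CPM on D13, and 46.6 and 36.7 CPM on D15. Both D0 pools were above all 14 later ones, and the later days moved up and down rather than steadily down. The D3 mean of 73.3 ± 2.90 CPM (SD, n = 2) was 6.18-fold below the D0 mean of 453 ± 21.2 CPM, and the D15 mean of 41.6 ± 7.03 CPM was 10.9-fold below it. The highest later pool, B of D7, held 23.4% of the D0 mean. No later pool reached the D0 level.

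JUNB (ENSG00000171223, chr19:12791486-12793315, plus strand) was at 290 and 295 CPM on D0, 79.2 and 29.8 CPM on D3, 103.6 and 53.0 CPM on D5 and 41.9 and 71.0 CPM on D7. It was at 58.6 and 52.7 CPM on D9, 60.4 and 68.0 CPM on D11, 64.0 and 17.4 CPM on D13, and 13.9 and 15.1 CPM on D15. The pools of D3, D5 and D13 lay far apart. With days ranked by their means, those from D3 to D13 overlapped with their neighbours, while both D15 pools lay below all others. In order of time, both D11 pools lay above both D9 pools. The D15 mean of 14.5 ± 0.846 CPM (SD, n = 2) was 20.1-fold below D0, against 5.36-fold for D3.

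JUN (ENSG00000177606, chr1:58776845-58784048, minus strand) stood at 441 and 424 CPM on D0, 139 and 171 CPM on D3, and 59.7 and 66.9 CPM on D15. FOSB (ENSG00000125740, chr19:45467995-45475179, plus strand) stood at 163 and 178 CPM on D0, 27.5 and 61.9 CPM on D3, and 10.8 and 10.9 CPM on D15. Each had its lowest mean on D13, at 44.6 CPM for JUN and 3.20 CPM for FOSB, and D15 lay above D13 in both pools. The fold below D0 was 2.79 on D3 and 6.83 on D15 for JUN, and 3.82 and 15.7 for FOSB.

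**Figure D1:**
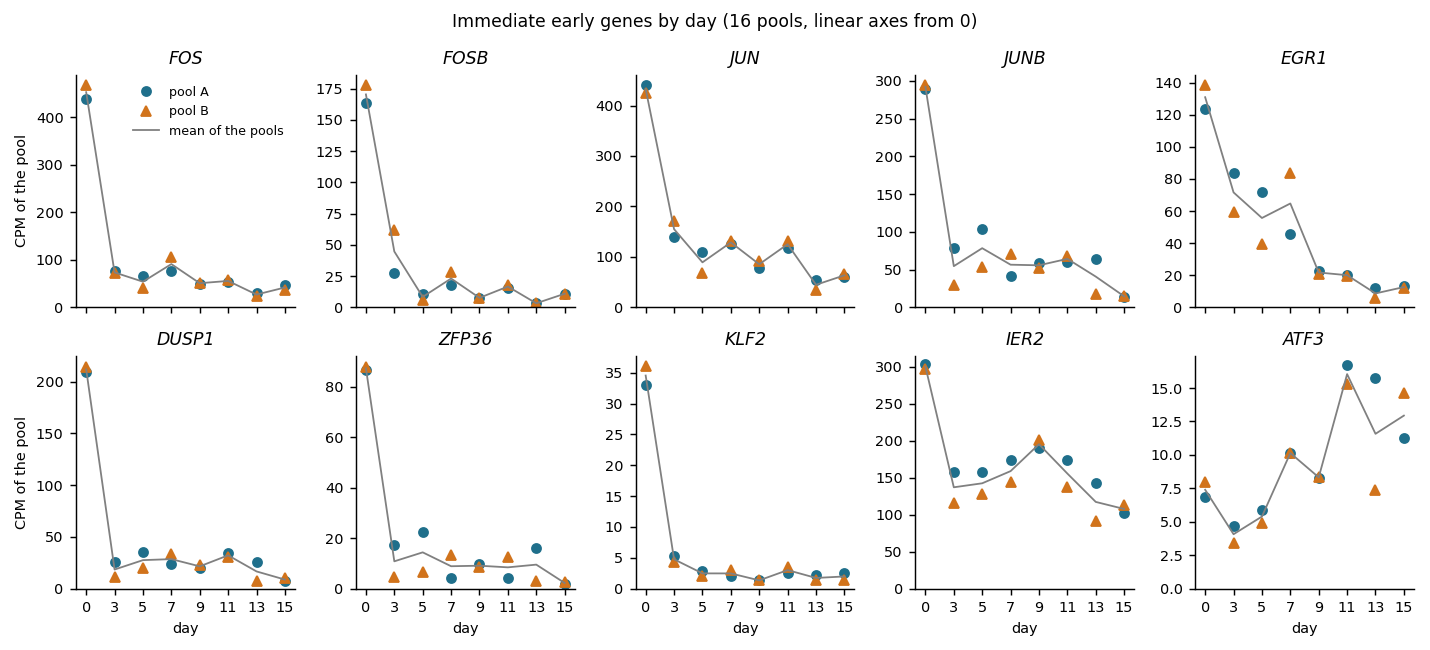
Level of each of the 10 genes (CPM of the pool, linear axes from 0) against day, with a circle for pool A, a triangle for pool B and a line through the mean of the 2 pools. For 9 genes both D0 pools lie above all 14 later pools, and ATF3 alone has a higher mean on D15, 12.9 CPM, than on D0.

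EGR1 is a target of SRF and MAP kinase signalling, and its level was lowest from D9 on. EGR1 (ENSG00000120738, chr5:138465479-138469303, plus strand) stood at 123 and 138 CPM on D0, 83.8 and 59.4 CPM on D3, 71.9 and 39.5 CPM on D5 and 45.6 and 83.8 CPM on D7. It stood at 22.9 and 20.5 CPM on D9, 20.3 and 19.7 CPM on D11, 11.8 and 5.50 CPM on D13, and 13.1 and 12.1 CPM on D15. All 8 pools of D9 to D15 lay below all 6 pools of D3 to D7, and the D3, D7 and D5 pools overlapped each other. The mean was 1.83-fold below D0 on D3 and 10.4-fold below it on D15. In the edgeR fit over all pools, the log2 difference of EGR1 between the mean of D9 to D15 and that of D3 to D7 was -2.15 ± 0.180 (SE), where the 10 members had a median of -0.74 and all 12794 genes tested one of -0.02.

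KLF2 rested on few UMIs after D0. It (ENSG00000127528, chr19:16324826-16328685, plus strand) stood at 33.1 and 36.0 CPM on D0, 5.24 and 4.25 CPM on D3, and between 1.31 and 3.44 CPM in the 12 pools from D5 on. The lowest day was D9, at 1.33 ± 0.00565 CPM (SD, n = 2), and D11 stood above it at 2.99 CPM. That SD understates the error, since the 2 aliquots of pool A of D9 held KLF2 at 3.73 and 1.04 CPM, from 47 and 107 UMIs. As few as 73 UMIs lay behind a pool's value, so small differences between the later days were not detectable at this depth.

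IER2 (ENSG00000160888, chr19:13150411-13154911, plus strand) had the smallest ratio of D0 to D15 among the 9 members that stood lower. It stood at 304 and 296 CPM on D0, 158 and 116 CPM on D3, 157 and 127 CPM on D5 and 174 and 144 CPM on D7. It stood at 189.9 and 200.2 CPM on D9, 174 and 137 CPM on D11, 143 and 91.5 CPM on D13, and 102 and 113 CPM on D15. D9, the day after the last transfection, lay above all other days but D0. With days ranked by their means, the remaining days overlapped with their neighbours. The D15 mean of 107.5 ± 7.81 CPM (SD, n = 2) was 2.79-fold below D0, and the mean of D9 to D15 differed from that of D3 to D7 by a log2 ratio of only -0.02.

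ATF3 was the exception among the members. It (ENSG00000162772, chr1:212565334-212620777, plus strand) stood at 6.82 and 7.96 CPM on D0, 4.69 and 3.44 CPM on D3, 5.87 and 4.90 CPM on D5 and 10.2 and 10.1 CPM on D7. It stood at 8.30 and 8.34 CPM on D9, 16.8 and 15.3 CPM on D11, 15.7 and 7.41 CPM on D13, and 11.3 and 14.6 CPM on D15. The pools of D3 and D5 lay below both D0 pools, and 9 of the 10 pools from D7 on lay above both, the exception being pool B of D13. The D15 mean of 12.9 ± 2.36 CPM (SD, n = 2) was 1.75-fold above D0.

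The feedback genes had the widest ratios to D0. DUSP1 (ENSG00000120129, chr5:172768096-172771195, minus strand) stood at 209 and 215 CPM on D0, 25.7 and 11.1 CPM on D3, 34.1 and 30.0 CPM on D11, and 7.44 and 9.87 CPM on D15. ZFP36 (ENSG00000128016, chr19:39406847-39409412, plus strand) stood at 86.7 and 88.0 CPM on D0, 17.2 and 4.39 CPM on D3, 16.1 and 2.85 CPM on D13, and 1.99 and 2.44 CPM on D15. The D15 means were 24.5-fold below D0 for DUSP1 and 39.5-fold for ZFP36, with 66 and 158 UMIs behind the D15 values of ZFP36. With days ranked by their means, neighbours after D0 overlapped for both genes, except that both D15 pools of ZFP36 lay below all others. In order of time, the DUSP1 pools of D9 lay below those of D7. Those of D11 lay above those of D9, and those of D13 below those of D11.

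Counted over the 10 members, both D3 pools lay below both D0 pools for 10, where 37.7% of all genes tested did the same. All 14 later pools lay below both D0 pools for 9, where 20.6% of genes did. At D15, 9 members lay below both D0 pools (43.8% of genes) and 1, ATF3, above both (47.6%). These counts repeat what chose the genes. Among the later steps, D5 lay below D3 for FOS, FOSB, JUN and KLF2 (14.8% of genes) and above it for ATF3 (23.6%). D7 lay above D5 for FOS, FOSB, JUN and ATF3 (23.1% of genes), D9 below D7 for 7 members (30.6%), D11 above D9 for FOS, FOSB, JUN, JUNB, DUSP1, KLF2 and ATF3 (37.8%), D13 below D11 for 6 (19.4%), and D15 above D13 for FOS, FOSB, JUN and EGR1 (22.3%). The edgeR log2 differences of D3 from D0 ran from -0.90 ± 0.263 (SE) for ATF3 to -3.58 ± 0.491 for DUSP1, with a median of -2.21 over the members and -0.06 over all genes. Those of JUNB and ZFP36 had the widest errors, at -2.48 ± 0.519 and -3.09 ± 0.858.

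The same was seen cell by cell. After each cell was thinned to 5000 UMIs, which every kept cell reached, the share of cells with a UMI of FOS was 84.3% on D0, 29.5% on D3 and 15.4% on D15, the mean of 2 pools each. Without thinning it was 98.5% on D0 and 59.8% on D15. The thinned share for IER2 was 72.2% on D0, 47.6% on D3, 54.1% on D9 and 36.9% on D15, and for ZFP36 it was 33.7%, 5.37%, 4.97% and 0.994%. ATF3 was seen in 3.52% of D0 cells and 6.40% of D15 cells. The part of free RNA in the low shares was not measured.

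A D0 cell carried UMIs of 5.20 members on average in pool A and 5.24 in pool B, and only 0.749% and 1.10% of cells carried none. In the later pools the mean was 0.854 to 2.37 members and the share with none 9.34% to 40.2%. Cells with 5 or more members made up 68.8% and 70.0% of D0 and 0.172% to 10.5% of the later pools. UMIs of 5 or more members were thus found in most D0 cells, and the part of free RNA in this was not measured. The variance of the number of members per cell was 1.15 to 1.93 times that expected if members were drawn independently within a pool, so that members shared cells more often than independent draws would in all 16 pools. Pools mix kinds of cells, and the part of that mixture in the excess was not tested.

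**Figure D2:**
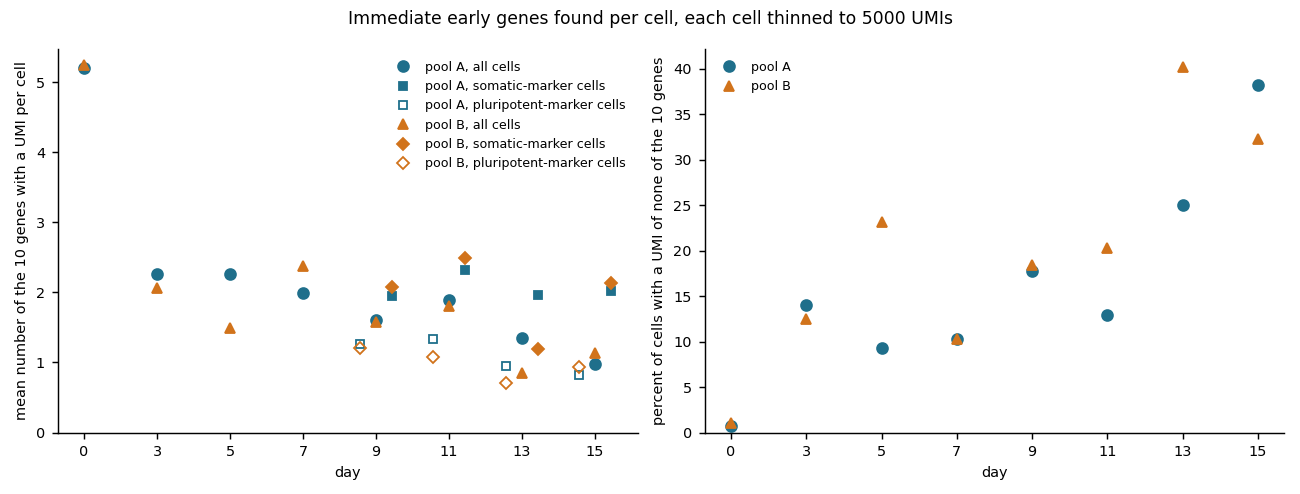
Mean number of the 10 genes with a UMI per cell (left) and percent of cells with a UMI of none (right) against day, each cell thinned to 5000 UMIs, with circles for pool A and triangles for pool B, and squares and diamonds for the cell classes of D9 to D15 (filled, somatic-marker; open, pluripotent-marker). The D0 pools lie at 5.20 and 5.24 members and all later pools at 2.37 or below, and on the left the somatic-marker point lies above the pluripotent-marker point in each of the 8 late pools.

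The members were then compared between cells of the same pool, a contrast that did not choose them. On D9 to D15, cells were classed by markers that hold no member: a somatic-marker cell had at least 3 somatic UMIs and at least 2 times as many as pluripotent ones, and a pluripotent-marker cell the reverse. The classes held 6521 and 9062 cells, and 2144 of 17727 cells (12.1%) were unclassed. The class of 4954 cells differed between limits of 1 and 4 times, so many cells lie near the boundary. Somatic-marker cells were 10.9% to 55.2% of a pool.

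Within pools, 9 of 10 members were higher in somatic-marker cells and IER2 was higher in pluripotent-marker cells (edgeR quasi-likelihood test with pool as a block, adjusted p under 0.01 and log2 difference beyond 0.25), where 34.1% of all genes tested were called in the former direction and 34.5% in the latter. JUNB stood at 58.9, 113.8 and 166 CPM (lowest, median and highest of 8 pools) in somatic-marker cells and 7.07, 12.97 and 15.6 CPM in pluripotent-marker cells, a log2 difference of 3.17 ± 0.106 (SE, adjusted p = 1.3e-07). DUSP1 stood at 22.1, 52.0 and 61.5 CPM against 3.83, 6.90 and 11.2 CPM, a log2 difference of 2.84 ± 0.141 (adjusted p = 3.3e-07). In neither gene did the classes overlap.

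FOSB stood at 7.83, 19.5 and 38.3 CPM in somatic-marker cells and 0.697, 3.92 and 7.65 CPM in pluripotent-marker cells, a log2 difference of 2.29 ± 0.208 (adjusted p = 4.1e-06). JUN stood at 73.5, 153 and 223 CPM against 24.4, 49.5 and 69.7 CPM, and its log2 difference was 1.57 ± 0.0922 (adjusted p = 5.1e-07). FOS stood at 31.8, 66.1 and 106.3 CPM against 21.3, 37.5 and 39.9 CPM, with a log2 difference of 0.86 ± 0.0927 (adjusted p = 1.3e-05). FOS thus had the smallest somatic excess of the AP-1 genes, and its classes overlapped across pools although somatic-marker cells were higher within each of the 8.

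ATF3, which stood above its D0 level on the late days, was higher in the cells with somatic markers too. It stood at 13.3, 21.4 and 47.9 CPM in somatic-marker cells and 4.09, 7.64 and 9.92 CPM in pluripotent-marker cells, with a log2 difference of 1.67 ± 0.147 (adjusted p = 3.5e-06). EGR1 (1.53 ± 0.134, adjusted p = 3.4e-06), ZFP36 (1.24 ± 0.101, adjusted p = 2.2e-06) and KLF2 (2.03 ± 0.445, adjusted p = 0.0017) were higher in somatic-marker cells as well. IER2 stood at 64.8, 123 and 161 CPM against 97.8, 155 and 229 CPM, a log2 difference of -0.45 ± 0.0984 (adjusted p = 0.0016), and was lower in somatic-marker cells in all pools but A of D15. Each of the other 9 was higher in somatic-marker cells in 8 of 8 pools, where 34.2% of all genes were, and 0 members were lower in all 8, where 32.0% of genes were. KLF2 ranged from 0.27 to 5.04 between pools on the log2 scale, the highest in pool A of D15 with 62 somatic-marker cells.

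Depth and other features moved with the classes. Median UMIs per cell were 21706.5 to 54196.5 in somatic-marker cells and 31196 to 71186 in pluripotent-marker cells, and the median mitochondrial share was 2.90% to 5.57% against 3.24% to 6.35%. Among dividing cells alone (an alternative added once values were known) the counts were again 9 and 1. The log2 differences were 2.66 for JUNB, 2.15 for DUSP1, 0.60 for FOS and -0.46 for IER2. The share of all genes called in that setting is not given here. Without the pool block the count for pluripotent-marker cells was 0, as IER2 then had an adjusted p of 0.076. That for somatic-marker cells was 8, as ZFP36 had an adjusted p of 0.018. In that fit 6212 of the 12794 genes tested were called.

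**Figure D3:**
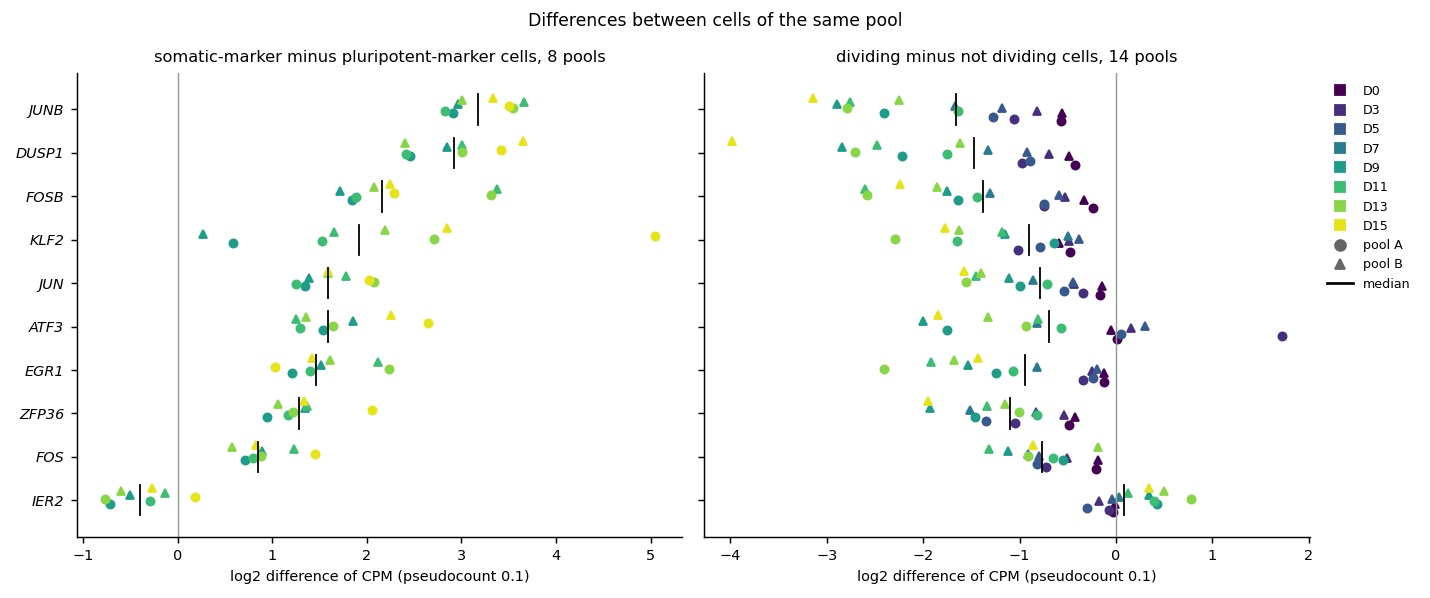
Log2 difference of CPM between classes of cells of the same pool (pseudocount 0.1) for each gene, with 1 point per pool coloured by day and a bar at the median, for somatic-marker minus pluripotent-marker cells (left, 8 pools) and dividing minus not dividing cells (right, 14 pools). On the left all 8 points lie above 0 for 9 genes and 7 of 8 lie below 0 for IER2, and on the right all 14 points lie below 0 for 8 genes.

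The level in somatic-marker cells was not that of D0. For 9 members all 8 somatic-marker sums of D9 to D15 lay below both D0 pools, where 21.3% of all genes did so, and for ATF3 all 8 lay above both, where 29.6% did. The mean number of members per cell at 5000 UMIs was 1.199 to 2.48 in somatic-marker cells and 0.709 to 1.34 in pluripotent-marker cells of these days. The D0 part of this comparison shares the values that chose the genes, so it has no test.

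Dividing cells carried less of most members. A dividing cell had at least 3 UMIs of 16 genes of the cell cycle at 5000 UMIs and a cell that was not dividing had 0, which left 14 pools, since pools A of D7 and D15 had 41 and 19 cells of the latter kind, under the minimum of 50. Of 10 members, 8 were lower in dividing cells and 0 were higher (edgeR, limits as above), where 29.5% and 26.0% of all genes were called lower and higher. By unadjusted p under 0.05 9 members differed, all of them lower, and DESeq2 also called 8 lower and 0 higher. The shares of all genes by these measures are not given here.

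JUNB stood at 10.3, 35.2 and 223 CPM in dividing cells (lowest, median and highest of 14 pools) and at 43.7, 146 and 328 CPM in the others, a log2 difference of -1.84 ± 0.223 (SE, adjusted p = 3.0e-06). DUSP1 stood at 5.92, 15.3 and 169 CPM against 14.8, 71.1 and 237 CPM, with a log2 difference of -1.71 ± 0.259 (adjusted p = 2.7e-05). Both genes had their highest values in both classes on D0. FOSB (-1.38 ± 0.199, adjusted p = 1.8e-05), ZFP36 (-1.19 ± 0.120, adjusted p = 3.9e-07), KLF2 (-1.09 ± 0.147, adjusted p = 8.7e-06), EGR1 (-0.996 ± 0.184, adjusted p = 1.7e-04), JUN (-0.90 ± 0.118, adjusted p = 7.2e-06) and FOS (-0.77 ± 0.0851, adjusted p = 1.2e-06) were also lower in dividing cells. Each of the 8 was lower in dividing cells in 14 of 14 pools, and the share of all genes lower in all 14 is not given here. Depth moved with this split too: median UMIs per cell were 23726 to 68424.5 in dividing cells and 22071 to 51780 in the others, for example 61855 against 36544 in pool B of D7, while on D0 they were 23726 against 24053 in pool A and 27288.5 against 29136 in pool B. The part of depth in the difference was not tested.

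IER2 (0.10 ± 0.0873, adjusted p = 0.33) and ATF3 (-0.68 ± 0.242, adjusted p = 0.020) did not pass. IER2 was higher in dividing cells in 8 of 14 pools and ATF3 in 5. On D0 itself the differences were small: -0.57 and -0.56 for JUNB, -0.43 and -0.49 for DUSP1, -0.21 and -0.19 for FOS and -0.03 and -0.01 for IER2 in pools A and B, on the log2 scale. Whether the difference changed with the day was not tested.

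Cell identity and division overlap after D9, so the contrast was also made apart from it, in settings chosen after the data were seen. In the pools of D0 to D7 alone, 8 members were again lower in dividing cells, with log2 differences of -1.11 for JUNB, -0.91 for DUSP1 and -0.39 for EGR1, while IER2 turned to -0.18 (adjusted p = 0.012). In somatic-marker cells of D9 to D15 alone 7 were lower, KLF2 being lost at -0.74 (adjusted p = 0.015). With no pool block 1 member passed, JUNB (adjusted p = 0.0043). The shares of all genes called in these settings are not given here, so these counts cannot be set against them.

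Pools made of 2 aliquots, frozen, thawed and captured apart, gave a measure of error within a pool. The median absolute log2 ratio of the members between the aliquots of a pool was 0.290 to 1.23 over 6 pools, with a median of 0.607, where the median over 4747 genes at 20 CPM or more was 0.311. Between the 2 pools of a day it was 0.0760 on D0 and 0.866 on D13, with a median of 0.347 over the 8 days against 0.208 for all these genes. The members and these genes are not matched in level, since the members include genes under 20 CPM with few UMIs, such as KLF2 with 27 and 46 in the aliquots of pool B of D5. The members' median was not the larger one everywhere: it was 0.290 against 0.296 in pool B of D7 and 0.178 against 0.208 between the pools of D11. Differences between later days that are within the spread between aliquots of one pool are no larger than that error.

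Pool B of D9 had the highest median of the 6. Its aliquots of 889 and 764 cells held FOS at 21.4 and 76.2 CPM, ZFP36 at 2.26 and 13.6 CPM and JUNB at 29.0 and 71.8 CPM. For IER2 they were nearer, at 180 and 217 CPM, and KLF2 was at 1.37 and 1.29 CPM. Of the 10 members, 9 were higher in the second aliquot, and 1.81% of genes had a ratio over the members' median. For both pools of D9, the share of all genes higher in the second aliquot is not given here. In pool A of D9 also 9 were higher in the second aliquot, with FOSB at 2.62 and 7.90 CPM and DUSP1 at 8.88 and 21.5 CPM, but there the aliquots held 143 and 1599 cells and 17.8% of genes had a ratio over the members' median. In pool B of D9 the gap of FOS was present in both classes, at 24.8 and 94.2 CPM in somatic-marker cells and 19.5 and 57.6 CPM in pluripotent-marker cells. In pluripotent-marker cells JUN (56.5 and 55.1 CPM), KLF2 (1.36 and 1.12 CPM) and ATF3 (4.27 and 3.91 CPM) were not higher in the second aliquot. The other members were, JUNB at 12.5 and 17.2 CPM against 68.4 and 139.5 CPM in somatic-marker cells. Median UMIs per cell were 43298 and 64736 in somatic-marker cells and 58345 and 89276.5 in pluripotent-marker cells of these aliquots, and the part of depth in the gap was not tested.

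**Figure D4:**
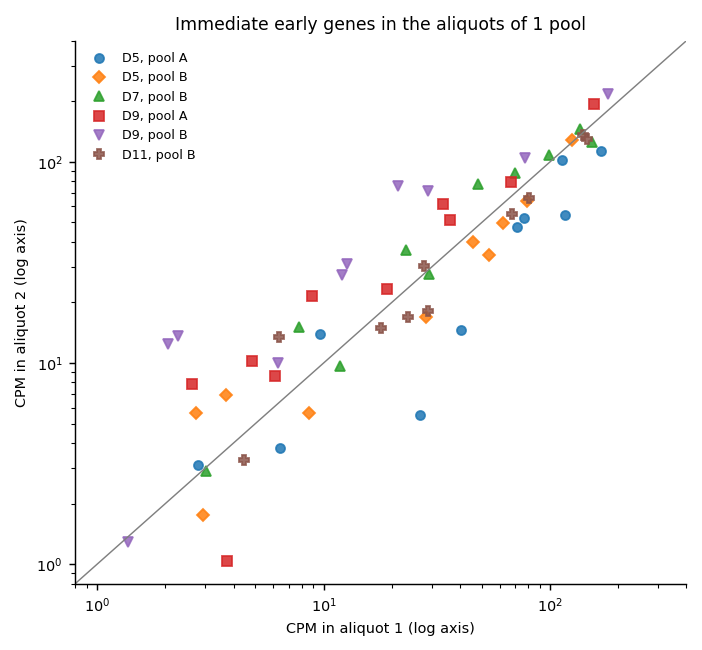
CPM of the 10 genes in aliquot 1 (horizontal, log axis) against aliquot 2 (vertical, log axis) of the 6 pools captured as 2 aliquots, with 1 mark per gene and pool and a line of equal levels. For each of the 2 pools of D9, 9 of 10 marks lie above the line.

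On D5, D7 and D13 the pools differed together with the somatic markers. On D13 the summed somatic markers were 5764 CPM in pool A and 2733 CPM in pool B, and JUNB, DUSP1 and ZFP36 were at 64.0, 25.5 and 16.1 CPM in A and 17.4, 7.57 and 2.85 CPM in B. On D5 the sums were 7960 and 5306 CPM, and all 10 members were higher in pool A. On D7 the sums were 4008 and 6942 CPM, and 8 members were higher in pool B, with EGR1 at 45.6 and 83.8 CPM and ZFP36 at 4.24 and 13.5 CPM. On D3 the sums were 5112 and 4758 CPM, and JUNB stood at 79.2 and 29.8 CPM, DUSP1 at 25.7 and 11.1 CPM and ZFP36 at 17.2 and 4.39 CPM. The share of all genes higher in the same pool is not given here for these counts of members. The part of the somatic-marker share in the gaps between pools was not tested.

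Beyond the members, 80 further early response genes were listed from general knowledge, and 72 passed the detection filter. Earlier results of these data were known when the list was made, so it was not drawn blind to them. On D3 against D0, 27 were lower and 9 higher (edgeR, adjusted p under 0.01 and log2 difference beyond 0.25), where 12.6% and 13.1% of all genes were. Adjusted over the list alone the counts were 28 and 10. The list's median log2 difference was -0.82, against -2.21 for the members and -0.06 for all genes. Without pool B of D0 the count of lower genes was 15, and in an edgeR fit of only the 4 pools compared it was 0 in both directions, where no gene of the 12794 passed. In that fit 32 genes of the list were lower and 14 higher at an unadjusted p under 0.05. DESeq2 on all 16 pools called 30 lower and 10 higher. The shares of all genes without pool B of D0, at the unadjusted limit and by DESeq2 are not given here, so these counts cannot be set against them.

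ZFP36L1, a paralog of ZFP36, stood at 341 and 375 CPM on D0 and 68.3 and 66.6 CPM on D3, a log2 difference of -2.44 ± 0.192 (SE, adjusted p = 3.4e-06). CEBPD, a leucine zipper factor, had -2.48 ± 0.280 (adjusted p = 4.1e-05), THBS1, a matrix glycoprotein, -2.34 ± 0.265 (adjusted p = 4.2e-05) and FOSL2, a further FOS family member, -2.16 ± 0.233 (adjusted p = 3.2e-05). SOCS3, an inhibitor of cytokine signalling, stood at 36.8 and 41.2 CPM on D0 and 8.15 and 1.72 CPM on D3 (-3.06 ± 0.723, adjusted p = 0.0052), and lost its call without pool A of D0 (adjusted p = 0.019), pool B of D0 (adjusted p = 0.022) or pool B of D3 (adjusted p = 0.025).

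Other early genes were higher on D3. CXCL1, a chemokine, stood at 1.54 and 1.48 CPM on D0 and 65.6 and 45.5 CPM on D3, a log2 difference of 5.16 ± 0.687 (adjusted p = 1.3e-04). CCL2, another chemokine, had 1.37 ± 0.187 (adjusted p = 1.5e-04) and DUSP6, a phosphatase of ERK, 1.12 ± 0.145 (adjusted p = 1.1e-04). FOSL1, the remaining FOS family member, stood at 8.70 and 8.99 CPM on D0 and 43.5 and 26.8 CPM on D3 (1.94 ± 0.401, adjusted p = 0.0023), and lost its call without pool A of D0 (adjusted p = 0.025), pool B of D0 (adjusted p = 0.024) or pool A of D3 (adjusted p = 0.014). FOSL1 and FOSL2 of the FOS family therefore moved in opposite directions between D0 and D3.

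After the last transfection and the change of medium, 23 of the 72 genes were lower and 12 higher in the mean of D9 to D15 than in that of D3 to D7 (edgeR, same limits), where 22.5% and 21.0% of all genes were, and adjusted over the list alone the counts were the same. The median was -0.19. The chemokines were lower: CXCL1 went from a mean of 186 to 50.1 CPM (-2.40 ± 0.313, adjusted p = 2.8e-05) and CCL2 from 75.5 to 25.0 CPM (-1.65 ± 0.0992, adjusted p = 1.7e-08). By single steps, CXCL1 had log2 differences of -1.48 ± 0.581 for D7 against D5 and 0.08 ± 0.569 for D9 against D7. For D11 against D9 it had -1.99 ± 0.591, and none of these steps was called. FOSL1 (-2.28 ± 0.214, adjusted p = 1.3e-06), IER5 (-1.67 ± 0.166, adjusted p = 2.2e-06) and the phosphatase gene DUSP4 (-1.61 ± 0.152, adjusted p = 1.3e-06) were lower too.

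Higher after D9 were the kinase gene PIM1, from a mean of 5.70 to 40.1 CPM (3.19 ± 0.304, adjusted p = 1.5e-06), the glucose transporter gene SLC2A3 (2.43 ± 0.110, adjusted p = 1.3e-09), and ID1 (2.28 ± 0.0906, adjusted p = 4.5e-10) and ID3 (1.46 ± 0.127, adjusted p = 6.2e-07), which encode inhibitors of basic helix-loop-helix factors. ID1 and SLC2A3 had been lower on D3 than on D0, by log2 differences of -1.81 ± 0.160 (adjusted p = 8.7e-06) and -1.94 ± 0.194 (adjusted p = 1.9e-05), while ID3 (-0.80 ± 0.227, adjusted p = 0.014) and PIM1 (-1.30 ± 0.516, adjusted p = 0.061) did not pass. ID1 stood at 64.3 and 78.7 CPM on D0, 20.1 to 40.8 CPM in the 4 pools of D3 and D5, 105.3 and 90.2 CPM on D7 and 152 to 263 CPM in the 8 pools from D9 on. The last group of days differs from the earlier one in transfection, medium, time and the mix of cells together, which cannot be told apart. The 20 pluripotent markers summed to 111 to 724 CPM in the pools of D3 to D7 and 1864 to 5134 CPM from D9 on.

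**Figure D5:**
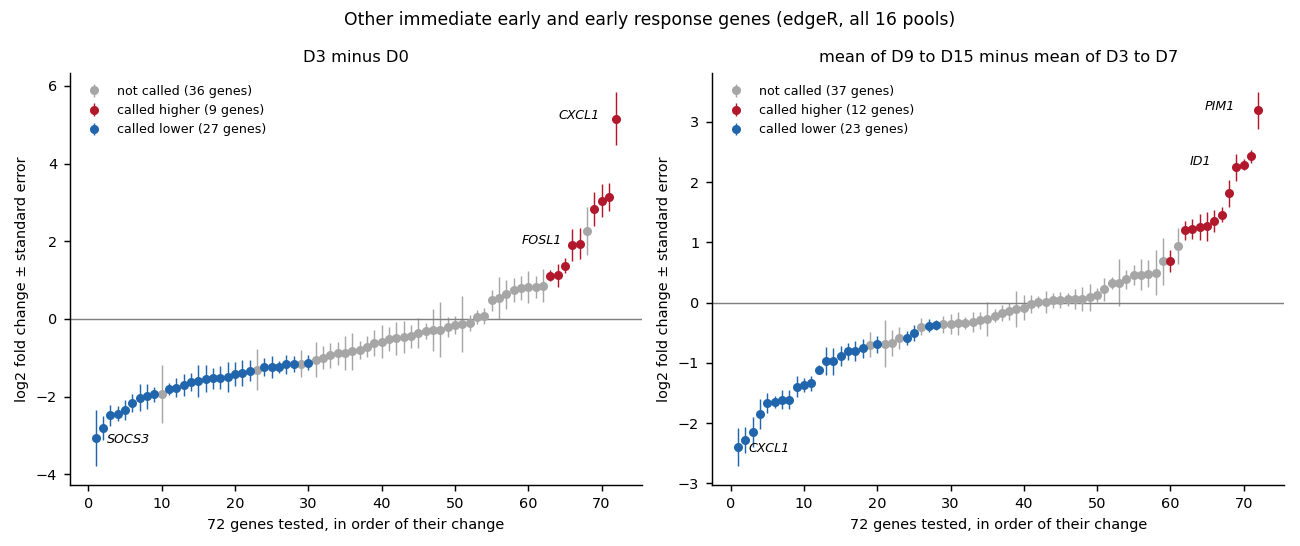
Log2 fold change ± standard error (edgeR, all 16 pools) of the 72 early response genes that are not members, ordered by their change, for D3 minus D0 (left) and for the mean of D9 to D15 minus that of D3 to D7 (right), with called genes coloured. On the left 27 are called lower and 9 higher, and on the right 23 lower and 12 higher.

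Between cell classes the 72 genes went mostly with the members. Of the 72, 56 were higher and 6 lower in somatic-marker cells than in pluripotent-marker cells, with a median log2 difference of 1.75 against 1.62 for the members, and adjusted over the list alone the counts were 56 and 6. In dividing cells 53 were lower and 2 higher, with a median of -0.88 against -1.04 for the members. In a list of 15 heat shock genes, also a stress response, 5 were higher and 7 lower in somatic-marker cells, and 8 were higher and 5 lower in dividing cells. The shares over all genes were 34.1% higher and 34.5% lower for somatic-marker cells, and 26.0% higher and 29.5% lower for dividing cells. The summed level of the heat shock list was 4012 and 3843 CPM on D0, 7094 and 7493 CPM on D3 and 10648 and 10888 CPM on D15, but the sum is weighted to abundant chaperones such as HSP90AA1, at 917 CPM on D0. Gene by gene on D15 against D0 (edgeR, where 26.8% of all genes were called higher and 26.7% lower), 6 were higher, among them HSPD1 at a log2 difference of 2.67 ± 0.209 (SE, adjusted p = 2.6e-07), and 4 were lower, namely CRYAB, DNAJB4, BAG3 and HSPB1, from -3.23 ± 0.295 (adjusted p = 9.9e-07) for CRYAB to -1.20 ± 0.222 (adjusted p = 4.2e-04) for HSPB1. On D3 against D0, 7 were higher and 2, CRYAB and DNAJB4, were lower, where 13.1% of all genes were called higher and 12.6% lower. These heat shock genes were named after their values were seen.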

How the data were processed

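Single-cell 3′ libraries of 16 pools (8 days, 2 pools each, 6 pools as 2 aliquots) were analysed from the deposited UMI counts, which the authors made with Cell Ranger 2.2, so the values are whole-number counts per gene and cell, not normalized. Cells with at least 1000 genes and a mitochondrial share up to 10% were kept, 571 to 6142 per pool with 33181614 to 180056814 UMIs. Kept cells were summed per pool, aliquots added. Genes seen in at least 5% of kept cells (12794) were fitted with edgeR 4.0.16 in R 4.3.3 (TMM, quasi-likelihood test, all 16 pools for days, pool as block for cell classes), with Benjamini-Hochberg adjustment over all genes tested, a limit of 0.01 and a log2 difference beyond 0.25. Class differences of single pools used CPM + 0.1. No doublet caller was run, and nothing in the sources used here gives doublet removal. DESeq2 1.42.0 size factors and other settings were tried as alternatives.

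The members, the further early genes and the marker lists were chosen with earlier results of these data known, and members were never tested between days. Named genes outside the members were, for each comparison of days, the called list genes with the 5 largest differences each way at 20 CPM or more on the higher side, of which 1 is not reported here. Pools were labelled as replicates of 4 chips each, and whether chips were seeded from separate cultures is not given in the sources used here, so p-values measure the spread between these pools. Whether the letters A and B pair pools across days is not given in the sources used here. Over 28 pairs of days the correlation of the deviations ran from -0.447 to 0.817, with 10 above 0.1, and pools were left unpaired. Gene positions are from gencode v44 (GRCh38), and promoter windows from RefSeq. In simulated counts, 1, 27, 49 and 50 of 50 genes changed by 2, 4, 8 and 16-fold were called for D3 against D0, and 32, 50, 50 and 50 between cell classes. In the data 25.6% of all genes were called for D3 against D0, a far larger share than was changed here. The adjusted limit depends on that share, so these counts do not give the power of the fit to the data.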

Additional observations from a re-analysis of the deposited data

Results flagged for a closer look

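ZFP36 had 1 pool far from the others in the difference between somatic-marker and pluripotent-marker cells: pool A of D15, at 2.05 on the log2 scale, where the median of the 8 pools was 1.28. That pool had 62 somatic-marker cells. Chance alone sets about 1 in 20 groups apart in this way, and 10 genes were looked at.

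IER2 differed in direction by day between dividing cells and the others. The median log2 difference was 0.41 on D9, D11 and D13, where both pools of each day lay above 0, and -0.057 on D0, D3 and D5, where both pools of each day lay below 0. ATF3 went the other way, at 0.23 on D3 and D5 and -1.13 on D9, D11 and D13. These differences between days were not tested.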

How the results depend on the processing

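Of 778 alternative values of single genes with a test, 751 kept their direction and their side of the threshold, 25 fell short of it, 1 newly passed it and 1 reversed: IER2 in dividing cells, at -0.18 on the log2 scale in the pools of D0 to D7 only, a setting added after the data were seen. Of 600 alternative CPM ratios of the members, 598 moved by less than the spread between pools.

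With only the 4 pools of the days compared, 0 further early genes were called lower and 0 higher on D3 by edgeR (32 and 14 at an unadjusted p under 0.05), in a fit with fewer samples. Leaving out 1 pool at a time gave 15 to 29 lower genes on D3, 15 being without pool B of D0, and 6 to 10 higher. Without the pool block, 0 members were called higher in pluripotent-marker cells by edgeR (1 at an unadjusted p under 0.05, and 1 by DESeq2 with the block) and 1 lower in dividing cells. Leaving out single pools gave 8 to 9 members lower in dividing cells, ATF3 being added without pool A of D3 (adjusted p = 0.0022 by edgeR). With the replicate letter as a block, though the letters are not known to pair pools, 27 further early genes were lower and 9 higher on D3, and 24 and 12 after D9. Apart from the adjusted counts of the fit of 4 pools, in which no gene passed, the shares of all genes in these alternatives are not given in this section. Low counts of KLF2, ZFP36 and ATF3 and the gap between aliquots limit comparisons of later days.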

Other observations

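The gene whose level over the 16 pools was most like the members' mean (Pearson correlation of log2(CPM + 1) with the mean of the standardized members, among 6315 genes) was PPP1R15A, an early stress-response gene that lets protein synthesis restart, at 0.969. It stood at 68.1 and 71.0 CPM on D0 and 15.5 and 16.4 CPM on D15. RP11-65I12.1, TM7SF2, RP11-490M8.1 and TXNDC15 followed, at 0.960 to 0.958. Over the 14 pools of D3 to D15 the most alike of 5917 genes were UBALD2 and PPP1R15A at 0.947 each, PRRX2 at 0.929, INF2 at 0.920 and HTRA2 at 0.918. Pools share a day and a cell line, and the many genes that differ between D0 and later pools score high over 16 pools, so these are descriptions.

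Among the members, the median correlation of log2(CPM + 1) over 16 pools was 0.801 for 45 pairs. JUNB and DUSP1 were the most alike, at 0.961, and still so over the 14 later pools, at 0.945, where the median was 0.487. EGR1 and ATF3 were the least alike, at -0.522 over 16 pools and -0.549 over 14.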
